A study of Mus musculus with 18 samples.

Results

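The 9 genes described here encode the proteins by which leukocytes catch, hold and cross the vessel wall: the endothelial selectins (Sele, Selp), their leukocyte ligand (Selplg), the endothelial ligands of integrins (Icam1, Icam2, Vcam1) and the leukocyte integrin chains (Itgal, Itgam, Itgb2). They were picked by name from the 54532 genes of a mouse RNA-seq count table, and all 9 were among the 18697 genes with enough counts to be tested. The study removed the mandibular first molar of mice with periodontitis and of control mice and sequenced RNA taken at 0 d, 3 d and 7 d, as 3 biological replicates for each combination of arm and day (6 groups). Teeth were extracted in both arms, so that controls carry an extraction wound too; whether 0 d was sampled before or after the extraction is not stated. The labels give neither the strain, age and sex of the mice nor the way in which periodontitis was produced, and do not say whether each library came from 1 animal. As tissue they state the first molar, whereas the series is titled after extraction sockets. P-values therefore measure the spread between these libraries.

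Periodontitis is an inflammation of the gum, ligament and bone that hold a tooth, and a tooth socket heals through clot, inflammation, granulation tissue and new bone. Leukocytes leave the blood in steps. E-selectin and P-selectin on activated endothelium first let them roll by binding the sugars of PSGL-1, the product of Selplg. Activated integrins then stop them: the chain encoded by Itgal or by Itgam pairs with that of Itgb2 to give LFA-1 or Mac-1, which bind the ICAM proteins, while VCAM-1 is bound by an integrin that contains the product of Itga4. Sele, Icam1 and Vcam1 are switched on by inflammatory cytokines through NF-kappaB, P-selectin is also stored in platelets and endothelial granules, and Icam2 is known as a constitutive gene of resting endothelium. Mice that lack Itgb2 function or the endothelial selectins have high blood neutrophil counts, and loss of ITGB2 in people causes leukocyte adhesion deficiency with severe early periodontitis.

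Libraries held 14139830 to 17763605 counts, of which the 9 genes took 0.031% to 0.139%, and no member had fewer than 139 counts in a library. The marker genes showed a mixed tissue. Bone cell markers were abundant in all 18 libraries (Col1a1 at 27200 CPM or more), and endothelial markers summed to between 612 and 922 CPM (10 genes, Eng the most abundant). Tooth markers separated the arms on every day. They summed to between 8.15 and 651 CPM in control libraries and to between 0.284 and 6.14 CPM in periodontitis libraries. At 0 d B cell markers summed to 22.3 to 69.0 CPM with periodontitis and to 125 to 243 CPM in controls. The part of such tissue differences in the comparisons between arms was not tested. Markers of autonomic ganglion neurons, which the labels do not name, summed to between 562 and 1856 CPM in 5 libraries and to at most 57.1 CPM in the other libraries. The 5 libraries were periodontitis 0 d replicates 1 and 3, periodontitis 3 d replicates 1 and 2, and control 3 d replicate 2. Skeletal muscle markers were highest in periodontitis 0 d replicates 2 and 3, at 488 and 1828 CPM. Results were therefore also computed without the 5 neuron-rich libraries, so that periodontitis keeps 1 library each at 0 d and 3 d, assumed to vary like the other groups. CPM are counts relative to the TMM-scaled total of a library. Fold changes are on the log2 scale, ± SE, with 3 libraries per group, and p-values of the quasi-likelihood test in edgeR were adjusted over the 18697 genes by Benjamini-Hochberg; a gene was called when that value was under 0.05.

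**Figure D1:**
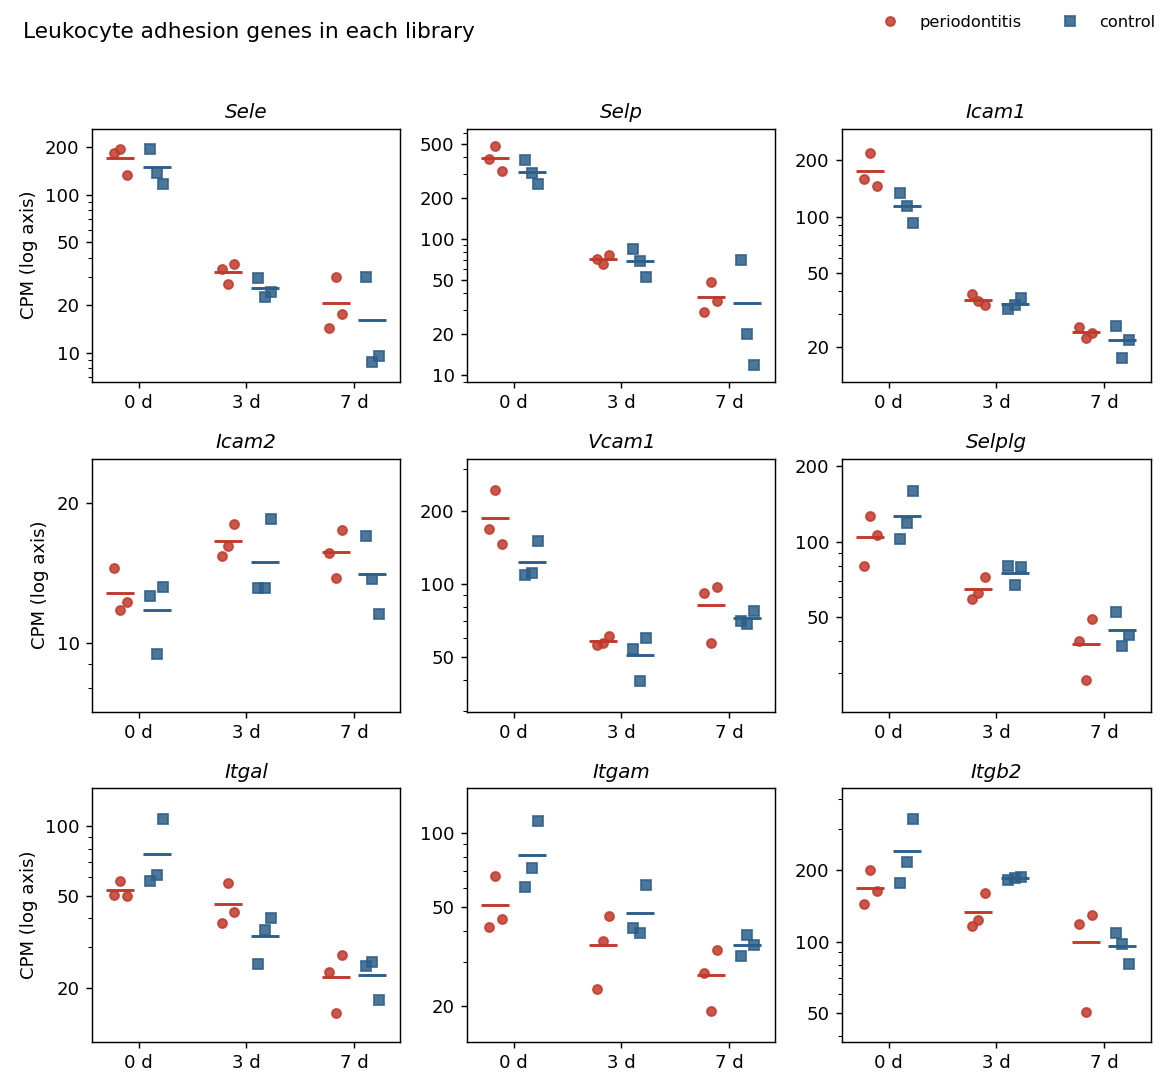
CPM (log axis) of the 9 adhesion genes in each of the 18 libraries by day, periodontitis (circles) left of control (squares); horizontal lines are group means of 3 libraries. Sele, Selp and Icam1 stand highest at 0 d in both arms, while Icam2 stays between 9.46 and 18.5 CPM throughout.

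Most adhesion genes were lower at 7 d than at 0 d in both arms, and the steepest falls were in the 2 endothelial selectins and Icam1. At 7 d against 0 d, 8 of the 9 genes were called lower with periodontitis and 8 of 9 in controls, where 20.7% and 21.4% of all genes tested were called lower. The gene not called in either arm was Icam2. For these 8 genes every 7 d library lay below every 0 d library, as it did for 23.2% of all genes with periodontitis and 25.4% in controls. At 3 d against 0 d, 5 of 9 were called lower with periodontitis, against 12.2% of all genes, and 7 of 9 in controls, against 18.3%. At 3 d the libraries lay wholly below those of 0 d for 5 members with periodontitis and 6 in controls, as they did for 21.1% and 25.7% of all genes. Between 3 d and 7 d only Itgal was called lower with periodontitis (1 of 9, against 2.63% of all genes), and in controls Selplg, Icam1 and Itgb2 were (3 of 9, against 5.87%). Each of these 4 calls between 3 d and 7 d was kept in at most 2 of 6 fits with a library left out, and none was made without the neuron-rich libraries. No member was called higher in any of these 6 comparisons. The median log2 change of the 9 genes from 0 d was -0.70 at 3 d and -1.24 at 7 d with periodontitis, where the median of all genes was -0.006 and 0.015. In controls it was -1.17 at 3 d and -1.51 at 7 d, beside 0.032 and 0.045 for all genes. The 3 d and 7 d comparisons of an arm share their 0 d libraries. In bulk tissue, fewer cells of a type and less RNA per cell cannot be told apart.

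Sele encodes E-selectin, which is made by activated endothelium. At 0 d Sele had 183, 194 and 134 CPM in periodontitis libraries, against 194, 138 and 117 CPM in control libraries. The 3 d values of Sele were 34.1, 27.1 and 36.3 CPM with periodontitis and 29.6, 22.7 and 24.4 CPM in controls. By 7 d Sele stood at 14.3, 30.05 and 17.5 CPM with periodontitis and at 30.3, 8.73 and 9.58 CPM in controls. Every later library lay below every 0 d library of its arm, whereas 3 d and 7 d overlapped in both arms. With periodontitis Sele fell by 2.39 ± 0.39 at 3 d (edgeR adjusted p = 0.000506) and by 3.05 ± 0.40 at 7 d (adjusted p = 4.21e-05), the second being a fold of 0.121. In controls it fell by 2.55 ± 0.39 at 3 d (edgeR adjusted p = 0.00016) and at 7 d it fell by 3.21 ± 0.41 (adjusted p = 1.68e-05), a fold of 0.108.

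Selp encodes P-selectin, the selectin that is released from granules to the endothelial and platelet surface. At 0 d Selp had 389, 478 and 313 CPM in periodontitis libraries, against 379, 306 and 252 CPM in control libraries. Its 3 d values were 71.0, 65.4 and 76.4 CPM with periodontitis and 85.1, 68.6 and 52.5 CPM in controls. By 7 d Selp stood at 29.1, 48.4 and 35.0 CPM with periodontitis and at 69.6, 19.97 and 11.97 CPM in controls. With periodontitis the 3 days did not overlap, and in controls 0 d stood clear while 3 d and 7 d overlapped through the high value of control 7 d replicate 1. With periodontitis Selp fell by 2.47 ± 0.45 at 3 d (edgeR adjusted p = 0.00123) and by 3.39 ± 0.47 at 7 d (adjusted p = 6.78e-05), where the fold was 0.0954. In controls it fell by 2.18 ± 0.45 at 3 d (edgeR adjusted p = 0.00144) and at 7 d it fell by 3.205 ± 0.468 (adjusted p = 6.18e-05), a fold of 0.108. Gm16587 and Gm16548, which lie on the opposite strand of Selp, share 4.21% and 9.93% of its exon bases and had at most 86 and 87 counts in a library, while Selp had 210 to 6864.

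Control 7 d replicate 1 held the highest Sele and Selp of its group. Without it, the control fall at 7 d against 3 d was 1.53 for Sele (edgeR adjusted p = 0.00345) and 2.15 for Selp (edgeR adjusted p = 0.000445), while with it neither was called (falls of 0.66 and 1.02, adjusted p = 0.285 and 0.143). Against 0 d the control falls at 7 d without it were 4.03 for Sele and 4.28 for Selp. The falls of both selectins from 0 d kept their calls whichever library was left out. Without the neuron-rich libraries the 3 d falls with periodontitis were 2.38 for Sele (edgeR adjusted p = 0.111) and 2.61 for Selp (edgeR adjusted p = 0.145), with 1 library on each side.

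Markers of platelets and megakaryocytes moved in the same direction as Selp. Their summed level (7 genes tested, Ppbp the most abundant) was 210 to 376 CPM at 0 d, 42.0 to 81.2 CPM at 3 d and 33.1 to 63.1 CPM at 7 d with periodontitis. In controls it was 577 to 864 CPM at 0 d, 144 to 241 CPM at 3 d and 65.3 to 99.0 CPM at 7 d. All 7 were called lower from 0 d to 7 d in both arms, and their part in the Selp result was not tested. At 0 d the platelet sums did not overlap between arms, with periodontitis lower, while the Selp ranges overlapped with periodontitis higher in mean (393 ± 82.5 CPM, against 312 ± 63.7 CPM in controls, SD, n = 3 each).

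The 10 endothelial markers did not move in 1 direction. Of these, 3 were called higher and 2 lower at 7 d against 0 d in both arms, with a median log2 change of 0.15 with periodontitis and 0.19 in controls. Of the junction genes Cdh5 and Pecam1, which are endothelial genes outside this list and named after their values were seen, Cdh5 changed by -0.52 ± 0.26 with periodontitis (edgeR adjusted p = 0.125) and by -0.98 ± 0.26 in controls (edgeR adjusted p = 0.00717). Pecam1 changed by -0.43 ± 0.22 with periodontitis (edgeR adjusted p = 0.129) and by -0.59 ± 0.22 in controls (edgeR adjusted p = 0.0415). Expressed as a percentage of the summed endothelial markers of the same library, Selp was 43.1% to 51.8% at 0 d, 8.21% to 8.71% at 3 d and 3.48% to 6.36% at 7 d with periodontitis. In controls Selp was 38.4% to 46.1% at 0 d, 6.56% to 10.6% at 3 d and 1.96% to 7.97% at 7 d. Sele was 18.5% to 21.0% at 0 d, 3.53% to 4.14% at 3 d and 1.71% to 3.95% at 7 d with periodontitis. The later values of both selectins thus lay below the 0 d values relative to the endothelial markers as well.

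**Figure D2:**
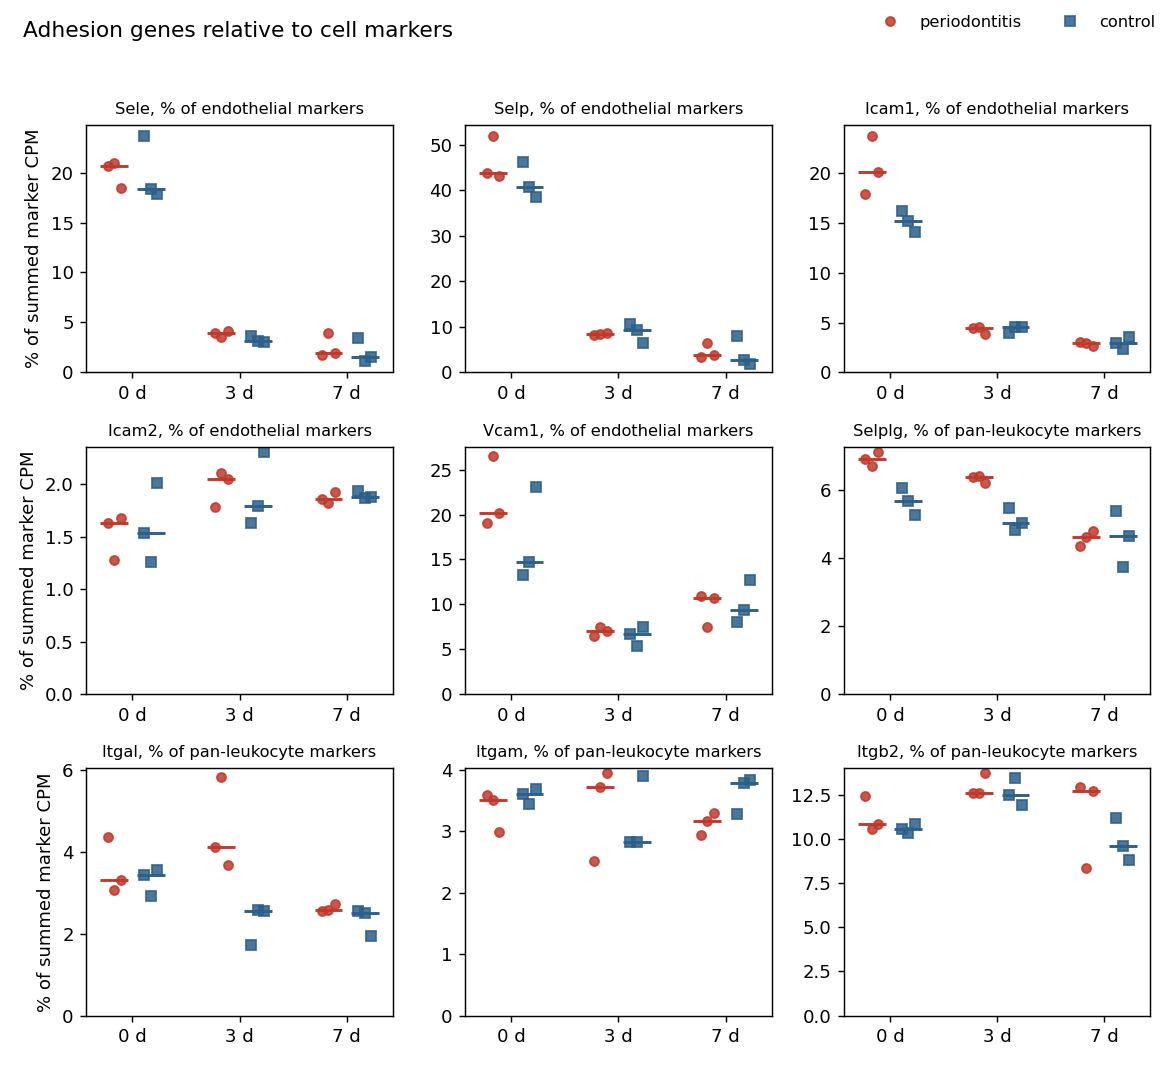
CPM of each adhesion gene as a percentage of the summed CPM of 10 endothelial markers (Sele, Selp, Icam1, Icam2, Vcam1) or 10 pan-leukocyte markers (Selplg, Itgal, Itgam, Itgb2) in the same library; horizontal lines are medians of 3 libraries, with periodontitis left of control. Selp lies at 43.1% to 51.8% at 0 d with periodontitis and at 38.4% to 46.1% in controls, and at most at 10.6% later.

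Icam1 encodes the main ligand of LFA-1 and Mac-1 on inflamed endothelium, and is also made by leukocytes and stromal cells. Its 0 d values were 159, 219 and 146 CPM in periodontitis libraries, against 133, 115 and 92.6 CPM in control libraries. At 3 d Icam1 had 38.2, 35.2 and 33.4 CPM with periodontitis and 32.0, 33.4 and 36.5 CPM in controls. At 7 d it had 25.6, 22.3 and 23.9 CPM with periodontitis and 25.8, 17.3 and 21.8 CPM in controls. The 3 days did not overlap in either arm. With periodontitis Icam1 fell by 2.29 ± 0.17 at 3 d (edgeR adjusted p = 1e-06) and by 2.87 ± 0.18 at 7 d (adjusted p = 7.67e-08), a fold of 0.137. In controls the fall was 1.74 ± 0.17 at 3 d (edgeR adjusted p = 2.92e-06) and 2.39 ± 0.18 at 7 d (adjusted p = 9.87e-08), a fold of 0.191. These calls held with each library left out and without the neuron-rich libraries. The further fall at 7 d against 3 d was 0.57 ± 0.17 with periodontitis (edgeR adjusted p = 0.0599, not called) and 0.65 ± 0.17 in controls (edgeR adjusted p = 0.0254), and the control call was lost without any 1 of 4 libraries (control 3 d replicates 2 and 3, control 7 d replicates 2 and 3).

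Icam2, which encodes the ICAM of resting endothelium, was the member that edgeR did not call in any comparison (chromosome 11, 106377656 to 106388075, minus strand). It had 14.5, 11.8 and 12.2 CPM at 0 d in periodontitis libraries, against 12.6, 9.46 and 13.2 CPM in control libraries. At 3 d Icam2 had 15.4, 16.2 and 18.0 CPM with periodontitis and 13.2, 13.1 and 18.5 CPM in controls, and its 7 d range was 13.8 to 17.5 CPM with periodontitis and 11.5 to 17.0 CPM in controls. The 3 d libraries all lay above the 0 d libraries with periodontitis (log2 change 0.37 ± 0.18, edgeR adjusted p = 0.177), a separation that 21.9% of all genes showed in this direction. The control change at 3 d was 0.34 ± 0.18 (edgeR adjusted p = 0.166). In each library the CPM of Icam1 divided by that of Icam2 was 11 to 18.6 at 0 d, 1.86 to 2.48 at 3 d and 1.36 to 1.64 at 7 d with periodontitis. In controls the same quotient was 7.03 to 12.1 at 0 d, 1.98 to 2.54 at 3 d and 1.27 to 1.9 at 7 d, so that it was highest at 0 d in both arms.

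Vcam1 (chromosome 3, 116109949 to 116129688, minus strand) encodes the ligand of the alpha 4 integrins, and is carried by cytokine-treated endothelium and by marrow stromal cells and macrophages. At 0 d Vcam1 had 169, 244 and 147 CPM in periodontitis libraries, against 109, 111 and 151 CPM in control libraries. The 3 d values were 55.7, 57.3 and 61.2 CPM with periodontitis and 54.0, 39.5 and 59.6 CPM in controls. At 7 d they were 91.4, 56.9 and 96.8 CPM with periodontitis and 70.5, 68.4 and 77.5 CPM in controls. Vcam1 was thus lowest at 3 d by group mean in both arms. Its fall at 3 d was 1.68 ± 0.22 with periodontitis (edgeR adjusted p = 7.25e-05) and 1.27 ± 0.22 in controls (edgeR adjusted p = 0.000367). At 7 d against 0 d it was 1.19 ± 0.22 with periodontitis (edgeR adjusted p = 0.000652) and 0.77 ± 0.22 in controls (edgeR adjusted p = 0.00908), the control call being lost without control 0 d replicate 3 (a fall of 0.61). With the level of pan-leukocyte markers as a covariate neither 7 d difference was called, at -0.55 with periodontitis (edgeR adjusted p = 0.0767) and 0.17 in controls (edgeR adjusted p = 0.756). The log2 difference of 7 d from 3 d was 0.49 ± 0.22 with periodontitis (edgeR adjusted p = 0.156) and 0.50 ± 0.22 in controls (edgeR adjusted p = 0.146), and in controls every 7 d library lay above every 3 d library, as 16.3% of all genes did.

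The 3 genes with the steepest falls lie in the mouse genome (GRCm38) on chromosome 1, from 164048234 to 164057677 (Sele) and from 164115264 to 164150026 (Selp), and on chromosome 9, from 21015985 to 21028817 (Icam1), all on the plus strand. The 250 bases before their RefSeq start sites are shown because these genes moved together and the windows of Sele and Icam1 hold a like sequence. They are given 5' to 3' from RefSeq (GRCm38.p6, plus strand) for chr1:164047984-164048233 (Sele), chr1:164115014-164115263 (Selp) and chr9:21015690-21015939 (Icam1, whose RefSeq start lies before the gene start of the count table). Capitals mark matches to GGANNTTCC and to TATAAA.
Sele: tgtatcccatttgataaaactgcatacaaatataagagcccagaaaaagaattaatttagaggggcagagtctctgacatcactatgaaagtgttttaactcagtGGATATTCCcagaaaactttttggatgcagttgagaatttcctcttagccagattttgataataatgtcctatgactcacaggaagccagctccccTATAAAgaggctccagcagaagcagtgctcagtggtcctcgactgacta
Selp: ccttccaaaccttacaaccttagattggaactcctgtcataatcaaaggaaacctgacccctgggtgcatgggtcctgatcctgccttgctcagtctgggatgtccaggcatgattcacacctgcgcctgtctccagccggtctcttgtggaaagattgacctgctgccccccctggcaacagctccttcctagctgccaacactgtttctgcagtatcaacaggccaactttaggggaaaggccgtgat
Icam1: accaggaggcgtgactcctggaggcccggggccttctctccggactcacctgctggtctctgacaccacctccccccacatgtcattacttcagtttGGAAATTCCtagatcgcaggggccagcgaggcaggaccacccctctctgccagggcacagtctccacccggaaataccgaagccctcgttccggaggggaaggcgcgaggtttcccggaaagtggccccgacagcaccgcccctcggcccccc
GGANNTTCC, a shortened kappaB-like pattern, was chosen after the sequences had been seen. Searched on both strands, it occurred at bases -145 to -137 before the Sele start and at -153 to -145 before the Icam1 start, where the pattern matches on both strands. It was found in 3.59% of 32851 RefSeq promoter windows of the same length. TATAAA occurred at -49 to -44 before the Sele start and in 12.4% of those windows. The kappaB consensus, searched by name, was in 7.25% of windows and in none of these 3. These matches describe the letters and do not show binding. The promoter table held 4 of the 9 members, the fourth being Itgam.

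Selplg (chromosome 5, 113818536 to 113832644, minus strand), whose product PSGL-1 is the selectin ligand of nearly all leukocytes, fell in both arms by less than the selectins. At 0 d Selplg had 79.9, 127 and 107 CPM in periodontitis libraries, against 102, 119 and 159 CPM in control libraries. Its 3 d values were 59.1, 62.5 and 72.2 CPM with periodontitis and 80.0, 66.9 and 79.0 CPM in controls. At 7 d they were 40.1, 27.9 and 48.9 CPM with periodontitis and 52.4, 38.4 and 42.6 CPM in controls. The 3 days did not overlap in either arm. The fall at 7 d against 0 d was 1.42 ± 0.21 with periodontitis (edgeR adjusted p = 0.000138) and 1.51 ± 0.21 in controls (edgeR adjusted p = 4.82e-05), and held with each library left out, though not in controls with the pan-leukocyte markers as a covariate. The fall at 3 d was 0.70 ± 0.21 with periodontitis (edgeR adjusted p = 0.0278) and 0.75 ± 0.21 in controls (edgeR adjusted p = 0.0116). The 3 d call was lost without any 1 of 4 libraries with periodontitis (0 d replicates 2 and 3, 3 d replicates 1 and 2), with falls of 0.52 to 0.84 over all 6 fits, and without control 0 d replicate 3 or control 3 d replicate 2, with falls of 0.55 to 0.85 over all 6 fits.

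Itgb2 (chromosome 10, 77530252 to 77565708, plus strand) encodes the beta chain that LFA-1 and Mac-1 share. At 0 d Itgb2 had 144, 200 and 163 CPM in periodontitis libraries, against 178, 217 and 328 CPM in control libraries. Its 3 d values were 117, 123 and 159.9 CPM with periodontitis and 182, 186 and 187 CPM in controls. At 7 d they were 119, 50.4 and 129 CPM with periodontitis and 109, 98.0 and 80.3 CPM in controls. In controls 7 d lay below both earlier days, whereas with periodontitis 0 d overlapped 3 d and stood clear of 7 d. Itgb2 fell at 7 d against 0 d by 0.76 ± 0.28 with periodontitis (edgeR adjusted p = 0.0437) and by 1.33 ± 0.28 in controls (edgeR adjusted p = 0.00149). The call with periodontitis held in 1 of 6 fits with a library left out (falls of 0.44 to 0.99), being kept only without periodontitis 7 d replicate 3. At 3 d the changes were -0.34 with periodontitis (edgeR adjusted p = 0.421) and -0.38 in controls (edgeR adjusted p = 0.315).

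Itgal (chromosome 7, 127296260 to 127335138, plus strand) encodes the alpha chain of LFA-1, the integrin of lymphocytes and of most other leukocytes. Its 0 d values were 50.4, 58.1 and 49.8 CPM in periodontitis libraries, against 57.9, 61.2 and 108 CPM in control libraries. At 3 d Itgal had 38.1, 56.9 and 42.7 CPM with periodontitis and 25.2, 35.6 and 40.0 CPM in controls. At 7 d it had 23.5, 15.6 and 27.8 CPM with periodontitis and 24.8, 25.8 and 17.7 CPM in controls. With periodontitis the 3 d libraries overlapped those of 0 d and lay above those of 7 d, while in controls they lay below those of 0 d and overlapped those of 7 d. The log2 change of Itgal at 3 d against 0 d was -0.20 ± 0.26 with periodontitis (edgeR adjusted p = 0.62), and in controls Itgal fell by 1.17 ± 0.26 (edgeR adjusted p = 0.00258). At 7 d against 3 d Itgal fell by 1.04 ± 0.26 with periodontitis (edgeR adjusted p = 0.0375), a call kept in 1 of 6 fits with a library left out (falls of 0.84 to 1.24), and in controls the change was -0.56 ± 0.26 (edgeR adjusted p = 0.176). The difference between arms in the change from 0 d to 3 d was 0.972 ± 0.365 and was not called (edgeR adjusted p = 0.326). Against 0 d, the 7 d fall was 1.24 ± 0.26 with periodontitis (edgeR adjusted p = 0.00207) and 1.73 ± 0.27 in controls (edgeR adjusted p = 9.58e-05), and neither was called with the level of pan-leukocyte markers as a covariate.

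Itgam (chromosome 7, 128062640 to 128118491, plus strand) encodes the alpha chain of Mac-1, the integrin of neutrophils, monocytes and macrophages. At 0 d Itgam had 41.6, 66.7 and 45.0 CPM in periodontitis libraries, against 60.7, 72.2 and 112 CPM in control libraries. Its 3 d values were 23.3, 36.4 and 46.1 CPM with periodontitis and 41.3, 39.2 and 61.4 CPM in controls. At 7 d they were 27.1, 19.1 and 33.7 CPM with periodontitis and 31.9, 38.8 and 35.1 CPM in controls. With periodontitis 3 d overlapped both other days, and 7 d lay below 0 d in both arms. Itgam fell at 7 d against 0 d by 0.94 ± 0.29 with periodontitis (edgeR adjusted p = 0.0183), a call lost without periodontitis 0 d replicate 2 (a fall of 0.695) or periodontitis 7 d replicate 2 (a fall of 0.745). In controls the 7 d fall was 1.21 ± 0.29 (edgeR adjusted p = 0.00313), and the 3 d fall was 0.79 ± 0.28 (edgeR adjusted p = 0.0418), a call kept in 2 of 6 fits with a library left out (falls of 0.49 to 1.02). A predicted protein-coding gene on the same strand, Gm49368, shares 68.7% of the exon bases of Itgam and had at most 6 counts in a library, so the division of reads between them is uncertain.

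Pan-leukocyte markers moved with the 4 leukocyte genes. Their summed level (10 genes, Lcp1 the most abundant) was 1156 to 1897 CPM at 0 d, 927 to 1164 CPM at 3 d and 603 to 1018 CPM at 7 d with periodontitis. In controls it was 1684 to 3033 CPM at 0 d, 1383 to 1571 CPM at 3 d and 914 to 1023 CPM at 7 d. At 7 d against 0 d, 7 of 10 were called lower with periodontitis and all 10 in controls. Relative to this sum, Itgb2 was 10.55% to 12.4% at 0 d, 12.6% to 13.7% at 3 d and 8.36% to 12.96% at 7 d with periodontitis, and 10.35% to 10.8%, 11.9% to 13.5% and 8.785% to 11.2% on the same days in controls. With the mean level of these markers as a covariate, Itgb2, Itgam, Itgal and Vcam1 were no longer called at 7 d against 0 d in either arm. The log2 changes of Itgb2 and Itgam turned to 0.16 and 0.08 with periodontitis and 0.12 and 0.28 in controls, and those of Itgal became -0.53 with periodontitis and -0.62 in controls. Selplg kept its 7 d call with periodontitis (-0.68, edgeR adjusted p = 0.0121) and lost it in controls (-0.43, edgeR adjusted p = 0.218), and its 3 d call was lost in both arms (-0.17 with periodontitis and -0.12 in controls). Under the same covariate the falls of Sele, Selp and Icam1 from 0 d kept their calls in both arms. Leukocyte types did not all fall. Control sums of monocyte and macrophage markers were 655 to 726 CPM at 0 d and 1063 to 1274 CPM at 3 d. At 7 d they were 699 to 907 CPM. With periodontitis the sums of the 3 days overlapped. Neutrophil markers summed to 8824 to 17160 CPM at 0 d and 2803 to 5758 CPM at 3 d in controls. With periodontitis they summed to 2378 to 8614 CPM and 642 to 1521 CPM. The part of these cells in the falls was not tested.

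Set against the pan-leukocyte markers, Selplg and Itgal had ranges that separated the arms on some days, while Itgam and Itgb2 overlapped between arms on every day. Selplg was 6.70% to 7.11% of the sum at 0 d, 6.20% to 6.40% at 3 d and 4.36% to 4.80% at 7 d with periodontitis. In controls Selplg was 5.25% to 6.07% at 0 d, 4.84% to 5.48% at 3 d and 3.75% to 5.40% at 7 d. At 0 d and 3 d each periodontitis library was above each control library on this scale. The CPM of Selplg overlapped between arms on both days and went the other way. Its log2 difference was -0.277 at 0 d and -0.222 at 3 d (edgeR adjusted p = 0.438 and 0.948). The sum that it was divided by was lower with periodontitis at 3 d, at 927 to 1164 CPM, against 1383 to 1571 CPM in controls. At 0 d that sum was 1156 to 1897 CPM with periodontitis and 1684 to 3033 CPM in controls. The share of all genes that separated on this scale is not given here. Itgal was 3.66% to 5.83% of the sum at 3 d with periodontitis and 1.73% to 2.57% in controls. Neutrophil markers, whose most abundant gene was S100a9, summed to 642 to 1521 CPM at 3 d with periodontitis and to 2803 to 5758 CPM in controls. The part of leukocyte makeup in these ratios was not tested.

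**Figure D3:**
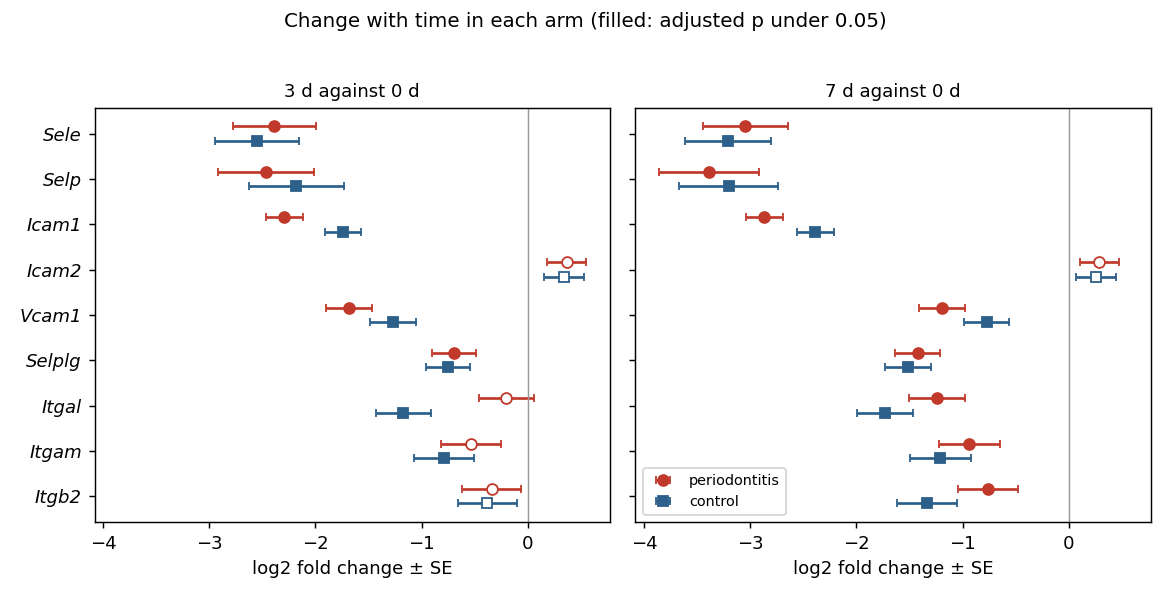
Log2 fold changes ± SE of the 9 genes at 3 d and at 7 d against 0 d, periodontitis (circles) above control (squares); filled symbols have an adjusted p under 0.05. The falls are steepest for Sele, Selp and Icam1, Icam2 lies right of 0, and Itgal at 3 d was not called with periodontitis (-0.20) and was called in controls (-1.17). The difference between arms in this change of Itgal was itself not called (0.972 ± 0.365, edgeR adjusted p = 0.326).

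On a scale corrected for gene length (CPM per kb of exon), the order of the 9 genes changed over time. At 0 d with periodontitis Selp was highest at 89.1 ± 18.7, above Sele at 58.5 ± 10.9, Itgb2 at 55.3 ± 9.38 and Icam1 at 40.1 ± 8.97 CPM per kb (SD, n = 3). Selp stood clear of Sele there, while Sele overlapped Itgb2 and Itgb2 overlapped Icam1. In controls at 0 d Itgb2 led at 79.0 ± 25.6, overlapping Selp at 70.7 ± 14.4, and Icam1, at 26.0 ± 4.64 CPM per kb, came after Selplg at 29.7 ± 6.87. At 7 d Itgb2 was highest in both arms, at 32.7 ± 14.1 with periodontitis and 31.3 ± 4.69 CPM per kb in controls, clear of all others. With periodontitis the next genes, from Vcam1 at 9.21 to Itgal at 3.39 CPM per kb, each overlapped their neighbour. Icam2 was the lowest member at 0 d in both arms, at 6.73 with periodontitis and 6.18 CPM per kb in controls, and by 7 d it was above Icam1 in mean, at 8.23 against 5.49 with periodontitis and 7.38 against 4.97 CPM per kb in controls.

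Between arms, the one member called was Icam1 at 0 d, where it was higher with periodontitis. Of the 9 genes 1 was called higher and 0 lower at 0 d, where 4.81% of all genes were called higher. Icam1 averaged 175 ± 39.1 CPM with periodontitis and 113 ± 20.2 CPM in controls, a log2 difference of 0.62 ± 0.16 (edgeR adjusted p = 0.034), with every periodontitis library above every control library. Such a separation in this direction was seen for 12.7% of all genes. Relative to the endothelial markers, Icam1 was 17.9% to 23.8% with periodontitis and 14.1% to 16.2% in controls, also without overlap. This ratio reuses the same Icam1 values, and the share of all genes separated on it is not given here. The call was lost without periodontitis 0 d replicate 1 (0.71, edgeR adjusted p = 0.0689), periodontitis 0 d replicate 2 (0.47, adjusted p = 0.0723), control 0 d replicate 2 (0.66, adjusted p = 0.0827) or control 0 d replicate 3 (0.50, adjusted p = 0.136). It was also lost without the neuron-rich libraries, where the difference was 0.98 (edgeR adjusted p = 0.125) and 1 periodontitis library of 0 d remained. Fitting only the groups compared (0.67, edgeR adjusted p = 0.108), or adding the level of neuron, muscle, endothelial or leukocyte markers as a covariate (0.50 to 0.76, edgeR adjusted p = 0.0597 to 0.213), ended it as well.

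The other endothelial genes had positive log2 differences at 0 d and the leukocyte genes negative ones, none of them called. Vcam1 averaged 187 ± 51.3 CPM with periodontitis and 123 ± 23.7 CPM in controls (0.60 ± 0.21, edgeR adjusted p = 0.0881), and its ranges overlapped by 1 library on each side; DESeq2 called it (adjusted p = 0.041), and with Icam1 it called 2 of 9, against 14.4% of all genes. The differences were 0.19 ± 0.37 for Sele, 0.33 ± 0.43 for Selp and 0.12 ± 0.18 for Icam2 (edgeR adjusted p = 0.799, 0.67 and 0.723). They were -0.68 ± 0.28 for Itgam, -0.52 ± 0.26 for Itgal, -0.51 ± 0.28 for Itgb2 and -0.28 ± 0.21 for Selplg (edgeR adjusted p = 0.138, 0.212, 0.265 and 0.438). The pan-leukocyte markers went the same way as these 4, with 4 of 10 called lower at 0 d and a median of -0.75. The 10 endothelial markers had a median of 0.18 and none was called by edgeR.

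At 3 d and 7 d no member was called between arms. At 3 d edgeR called 0 of 9, against 0.134% of all genes, and DESeq2 called 0, against 1.56%. Unadjusted, 0 members had an edgeR p under 0.05 at 3 d, against 1544 of the 18697 genes tested. Itgb2 was the only member whose groups did not overlap at 3 d, with periodontitis lower (133 ± 23.2 CPM, against 185 ± 2.80 CPM in controls, SD, n = 3 each), a log2 difference of -0.475 ± 0.281 (edgeR adjusted p = 0.775). Of all genes, 11.3% were separated in that direction. At 7 d edgeR called 0 of 9, against 0% of all genes, and DESeq2 called 0, against 0.599%. Unadjusted, 0 members had an edgeR p under 0.05 at 7 d, against 1188 of the 18697 genes tested. The 7 d differences ran between -0.40 ± 0.29 for Itgam and 0.35 ± 0.39 for Sele, and all 9 genes overlapped, while 10.3% of all genes were separated in either direction. With 3 libraries per group their SEs lay between 0.17 and 0.44, so that a missing call does not show equal levels. The smallest detectable difference was not computed.

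Over the mean of the 3 days edgeR called 0 of the 9 genes, against 4.67% of all genes, and DESeq2 called 1, against 8.56%. Unadjusted, 3 had an edgeR p under 0.05, as had 3726 of the 18697 genes tested. The 3 were Itgam (-0.50 ± 0.16, edgeR adjusted p = 0.0957), Icam1 (0.28 ± 0.10, edgeR adjusted p = 0.114; DESeq2 adjusted p = 0.0463) and Vcam1 (0.32 ± 0.12, edgeR adjusted p = 0.157). With each of the 18 libraries left out in turn, edgeR called between 0 and 3 members. A count of 3 was reached without control 7 d replicate 1, which held the highest Sele and Selp of its group. There the mean differences were 0.59 for Sele, 0.56 for Selp and 0.35 for Icam1 (edgeR adjusted p = 0.0361, 0.0415 and 0.0445). With all libraries Sele (0.293 ± 0.219, edgeR adjusted p = 0.501) and Selp (0.175 ± 0.25, edgeR adjusted p = 0.76) were not called.

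**Figure D4:**
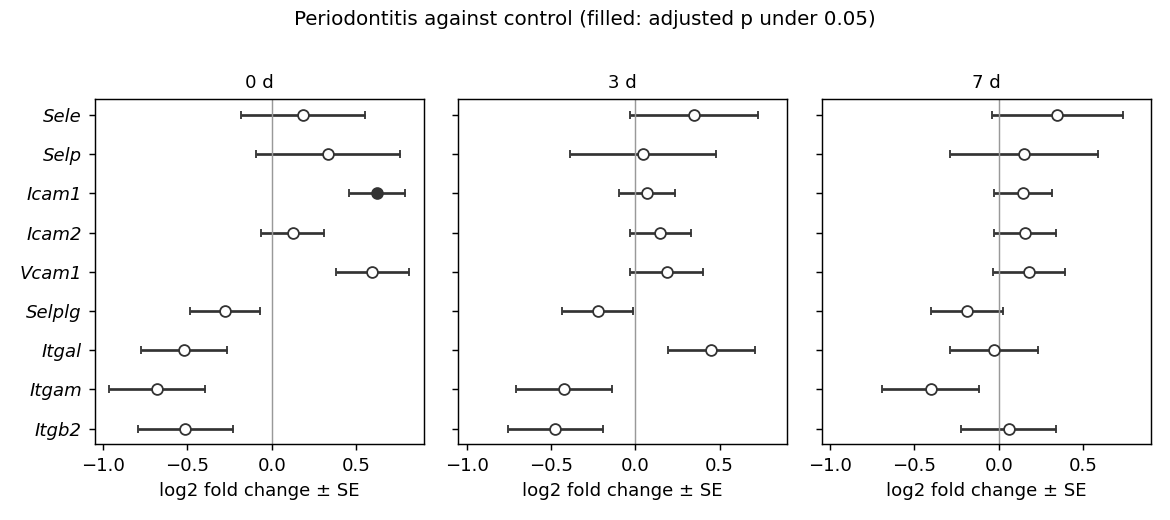
Log2 fold changes ± SE of periodontitis against control on each day for the 9 genes; values right of 0 are higher with periodontitis and the filled symbol has an adjusted p under 0.05. Icam1 at 0 d (0.62 ± 0.16) is the one filled symbol, and at 7 d all values lie between -0.40 and 0.35.

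Whether the arms changed differently over time was tested by interaction terms. For the change from 0 d to 3 d edgeR called 0 of 9 members, against 0.016% of all genes. DESeq2 called 0, against 1.14%. The differences ran from -0.555 to 0.972 and edgeR adjusted p from 0.326 to 0.984. An unadjusted edgeR p under 0.05 was found for 2 members, and for 2228 of the 18697 genes tested. The 2 members were Itgal (0.972 ± 0.365) and Icam1 (-0.555 ± 0.234). For the change from 0 d to 7 d edgeR called 0 of 9, against 0.0428% of all genes. DESeq2 called 0, against 3.81%. Here 0 members had an unadjusted edgeR p under 0.05, against 2990 of the 18697 genes tested. A smaller or larger time effect in one arm was thus not shown for any member.

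Genes of the same pathway were read between arms at 0 d from lists of related genes. In that comparison edgeR called 1547 of the 18697 genes tested, 899 of them higher. Among 14 selectin ligands and enzymes of their glycosylation, 1 was called higher and 1 lower with periodontitis. Cd34, a sialomucin of endothelium and progenitors, averaged 110 CPM with periodontitis and 72.1 CPM in controls (0.61 ± 0.17, edgeR adjusted p = 0.0436). Spn, the leukocyte sialomucin CD43, averaged 22.3 CPM with periodontitis and 67.4 CPM in controls (-1.60 ± 0.41, edgeR adjusted p = 0.0297). Among 10 genes of integrin activation 0 were called higher and 2 lower. These were Fermt3, encoding kindlin-3, which binds the integrin beta tail (74.5 CPM with periodontitis, against 157 CPM in controls, -1.07 ± 0.26, edgeR adjusted p = 0.026), and Rasgrp2, an activator of Rap1 (38.5 CPM with periodontitis, against 95.6 CPM in controls, -1.31 ± 0.29, edgeR adjusted p = 0.0182). Leukocyte and platelet markers were lower with periodontitis at 0 d too. Pan-leukocyte markers summed to 1156 to 1897 CPM, against 1684 to 3033 CPM in controls. Platelet and megakaryocyte markers summed to 210 to 376 CPM, against 577 to 864 CPM in controls. The part of these cells in the calls of Spn, Fermt3 and Rasgrp2 was not tested. Of 7 tested genes of passage between endothelial cells, Cd99l2 was called, at 38.8 CPM with periodontitis and 22.6 CPM in controls (0.78 ± 0.13, edgeR adjusted p = 0.00513). None of the 8 other leukocyte adhesion receptors was called by edgeR, nor were the 5 other integrin ligands tested. At 3 d and 7 d no gene of these 5 lists was called between arms by edgeR.

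The genes whose log2 CPM ran closest to each member over the 18 libraries are given as a description among 14232 protein-coding candidates with a mean of at least 1 CPM; all libraries share the strong change between days. Sele and Selp were each other's closest gene (Pearson r = 0.985), followed for Sele by Gdnf (0.984) and Spsb1 (0.982) and for Selp by Spsb1 (0.983) and Il4ra (0.979). Icam1 was closest to Nfkbia (0.988), which encodes the NF-kappaB inhibitor IkappaB-alpha, then to Nfkbib and Rnd1 (0.986 each). Vcam1 was closest to Slfn5 (0.96), Olfr56 (0.945) and Steap4 (0.942). Selplg ran closest to Rhog (0.981), Slc27a4 (0.977) and Hcls1 (0.975), and Itgb2 to Lcp1 (0.973), Laptm5 (0.972) and Cap1 (0.965). Itgam was closest to Arhgap30 (0.952), Coro1a (0.949) and Ikzf1 (0.948), and Itgal to F10 (0.954), Sema4a (0.948) and Fgr (0.94). Icam2 had the weakest partners, Pomt2 (0.864), Elp6 (0.826) and Slc7a7 (0.819).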

How the data were processed

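RNA-seq libraries were compared for 9 genes chosen by name. Members and gene lists were chosen with earlier results of these data known. The authors deposited raw counts of reads per gene, with gene names and coordinates. Total RNA was extracted in TRIzol and made into libraries by a NEBNext Ultra kit, per the labels' protocols. HISAT2, SAMtools and StringTie and the build mm9 are listed per the submitters' processing notes; the sources used here do not give versions, the program that counted reads, its use of strand or the annotation. Of the gene identifiers 99.8% occur in GENCODE M21 and 98.3% of these, with all 9 members, have the same coordinates there, so coordinates are given as GRCm38.

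Titles gave each sample's arm and day. Totals lay between 14139830 and 17763605 counts, and the smallest member count was 139. Replicates differed by more than sampling noise (chi-square per gene 9.3 to 100 between 2 libraries of a group). At 7 d, control replicate 1 differed from replicates 2 and 3 by 50.7 and 83.1, against 17.6 between replicates 2 and 3. Periodontitis 7 d replicate 2 differed from replicates 1 and 3 by 79.3 and 100, against 9.3 between replicates 1 and 3. Genes were kept by filterByExpr, scaled by TMM and tested by the quasi-likelihood functions of edgeR 4.0.16 (glmQLFit, glmQLFTest, R 4.3.3), fitting 1 mean for each group and a spread shared by 18 libraries. The 12 comparisons were the arms on single days and over the mean of days, 3 changes between days in each arm, and 2 interactions. Within each, Benjamini-Hochberg adjustment covered 18697 genes. SEs were derived from the F statistics. Log2 CPM used a prior count of 2. The pipeline was tested on simulated data.

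Alternatives were RLE size factors, no filter on low counts, at least 1 CPM in 9 libraries, DESeq2 1.42.0, only the groups compared, a replicate block, marker lists as covariates (neuron, muscle, endothelial, leukocyte) and each library left out. Leaving out the 5 neuron-rich libraries and scaling by library totals were added after seeing the data. All members were named, in pathway lists up to 3 called genes per comparison of arms on a day, in marker lists the most abundant gene, and 3 genes of most similar pattern per member. List sums cover the genes tested. Promoters came from RefSeq. A gene result is not reported here.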

Additional observations from a re-analysis of the deposited data

How the results depend on the processing

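With 3 libraries per group, calls near the threshold depended on the settings, and the covariates change with day or arm as the members do; the cause of each change was not tested. At 0 d between arms the call of Icam1 was joined by Vcam1 by DESeq2 (2), and the count was 0 with only the groups compared, with the neuron, muscle or endothelial covariate, or without the 5 neuron-rich libraries; with the leukocyte covariate the 1 call was Vcam1 and not Icam1. Over the mean of days, 1 was called by DESeq2 (Icam1) and with the neuron or leukocyte covariate (Vcam1). The leukocyte covariate left 4 of 8 called at 7 d against 0 d with periodontitis, and in controls 3 of 8 at 7 d against 0 d and 4 of 7 at 3 d against 0 d. At 7 d against 3 d in controls it ended all 3 calls, and 1 other gene, Vcam1, was called (0.90). Under it Itgam at 7 d against 0 d turned to 0.077 with periodontitis, and to 0.278 in controls (0.075 at 3 d), Itgb2 to 0.157 with periodontitis and 0.117 in controls, and Vcam1 at 7 d in controls to 0.166, none called (adjusted p from 0.555 to 0.853). Without the neuron-rich libraries the call counts were 2 at 3 d against 0 d and 0 at 7 d against 3 d with periodontitis, and 0 at 7 d against 3 d in controls. At 7 d against 3 d with periodontitis 2 were called with library totals or the endothelial covariate and 3 with no filter, the stricter filter, DESeq2 or the leukocyte covariate, Itgal among them each time. Itgal was lost with only the groups compared, where 2 others were called (Selp and Icam1), with the neuron covariate, where Selplg was called, and with the muscle covariate (0). With libraries left out in turn, counts ranged from 0 to 1 between arms at 0 d, 0 to 3 over the mean of days, and were 0 at 3 d, at 7 d and for the interactions. With periodontitis they ranged from 4 to 5 at 3 d against 0 d, 0 to 2 at 7 d against 3 d and 6 to 8 at 7 d against 0 d, and in controls from 5 to 7, 0 to 5 and 7 to 8. Pairing of libraries by replicate number was not shown, though 3 libraries per group cannot exclude it. Correlations of the 45 same-number pairs ran from -0.591 to 0.659, with 10 above 0.1. In 16 pairs the library correlated best with its own number. The replicate block left all 108 member values on their side of the threshold, with 1 call at 0 d and 8 at 7 d against 0 d in each arm. RLE size factors did the same.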

Other observations

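Other genes of leukocyte adhesion and passage also changed with time; those named here were chosen after their values were seen. Itga4 and Itgb1, which encode the chains of the VCAM-1 receptor, were not called at 7 d against 0 d: the changes were 0.44 ± 0.26 and 0.17 ± 0.13 with periodontitis (edgeR adjusted p = 0.19 and 0.312) and -0.23 ± 0.26 and 0.19 ± 0.13 in controls (edgeR adjusted p = 0.521 and 0.261). Cd44, a hyaluronan receptor that can carry selectin ligands, fell by 1.34 ± 0.17 with periodontitis (edgeR adjusted p = 2.12e-05) and by 1.55 ± 0.17 in controls (edgeR adjusted p = 3.46e-06).

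Of 10 genes of integrin activation, 5 were called lower at 7 d against 0 d with periodontitis and 8 in controls, and 0 were called higher in either arm, where 20.7% and 21.4% of all genes were called lower. Most of these genes are known from leukocytes and platelets, and 7 of 10 pan-leukocyte markers with periodontitis and 10 of 10 in controls were called lower too; their part in the result was not tested. Rassf5, which encodes the Rap1 effector RAPL, fell by 1.26 ± 0.18 with periodontitis (edgeR adjusted p = 0.0001) and by 1.40 ± 0.18 in controls (edgeR adjusted p = 2.06e-05). Fermt3 fell by 0.86 ± 0.26 with periodontitis (edgeR adjusted p = 0.018) and by 1.94 ± 0.27 in controls (edgeR adjusted p = 3.87e-05). Of 7 tested genes of passage between endothelial cells, 0 were called higher and 1 lower with periodontitis. In controls 2 were called higher (Cd99l2 and Nectin2) and 3 lower (Pvr, Cdh5 and Pecam1). Of all 18697 genes tested, 7300 with periodontitis and 7726 in controls were called in either direction, 3879 and 3995 of them lower. Pvr, which encodes the poliovirus receptor, fell by 1.71 ± 0.16 with periodontitis (edgeR adjusted p = 2.11e-06) and by 1.89 ± 0.17 in controls (edgeR adjusted p = 5.15e-07). Differences between arms in these changes are not given here.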
